A study of Bos taurus with 39 samples.

Results

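The 65 miRNAs described here were the abundant predicted miRNAs of bovine oocytes that belong to none of the named groups of the series. A predicted miRNA is a mature sequence that the miRNA caller placed on a hairpin-forming stretch of the cattle genome without a match in miRBase, the public miRNA catalogue, and it carries only a running number from that caller (predicted miR-212, for example). The members were chosen by their own counts: at least 3000 counts summed over the 39 libraries, with rows of equal counts kept as a single entry. Of 965 predicted miRNAs, 86 rows reached that sum, 8 of them were left out by number because they belong to other groups, and 13 were equal copies, so that 65 members remained. The whole data set held 1995 known and predicted miRNAs, of which 56 known miRNAs had 3000 counts or more and served as a comparison.

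The libraries came from oocytes matured in 4 groups. Control oocytes stayed inside intact cumulus-oocyte complexes, CBX oocytes stayed inside complexes exposed to carbenoxolone (a gap junction blocker), DO oocytes were denuded of cumulus cells before maturation, and co-culture oocytes (cocult) were denuded and then matured across a porous insert from intact complexes, without contact. Each group was sampled at 1, 6 and 22 h with 3 libraries, and the control also had 3 libraries at 0 h, which gave 13 conditions. Each library pooled oocytes of slaughterhouse ovaries, and a repeat of the maturation run was added to it, so that no library stands for a single animal. Cumulus cells were stripped by vortexing with hyaluronidase, the zona of DO oocytes was digested with pronase, only oocytes with a visible polar body were kept where the methods describe the collection, and CBX was the only blocker used. Nothing in the labels says that the libraries of a group came from separate animals, and the p-values measure the spread between these pools.

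MiRNAs are short RNAs cut from hairpin precursors. Loaded into an Argonaute protein, a miRNA pairs through its seed (bases 2 to 8) with messenger RNAs and lowers their translation or stability. A growing oocyte stores messenger RNA, later falls transcriptionally silent, and is linked to its cumulus cells by gap junctions at the tips of transzonal projections, through which small molecules pass. The study asked whether miRNAs depend on that contact. Predicted miRNAs are less certain than catalogued ones, since fragments of other small RNAs can also map to hairpin-forming sequence.

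Mature sequences were at hand for 2 of the 65, the pair that the results below return to. Both come from a supplementary list of the study with locations on ARS-UCD1.2. The study titles that list as differentially expressed predicted miRNAs, but names neither of the pair in the group comparisons it reports. The pair cannot be taken as chosen independently of their levels in these libraries. Seed bases 2 to 8 are in capitals.
predicted miR-589: uUGAUUUGcauuucucuga
predicted miR-723: uACAGGCUuguuagguca
The first has 19 bases, and its listed location is chr29:5614595-5614709 on the minus strand. The second has 18 bases, and its listed location is chr4:97883770-97883877 on the plus strand. Both intervals are longer than the mature sequences, so they do not give the exact positions of these bases. The seeds differ, and the share of G and C is 31.6% in predicted miR-589 and 44.4% in predicted miR-723. An annotation of that build was not used here, so the genes around both loci are not described. Predicted miR-589 had the same counts in every library as predicted miR-590 and stands for both.

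Library totals ran from 11985 to 175429 counts, with a median of 70069, and 3 libraries held under 30000 counts (control 0 h replicate 1, control 6 h replicate 1 and CBX 22 h replicate 2). A count of 3, used as the floor of detection, corresponds to 17.1 CPM (counts scaled to the library total) in the deepest library and 250.3 in the shallowest. Replicates of a condition differed by 4.62 to 23.5 times the counting noise (chi-square per degree of freedom, 39 replicate pairs), so none was a library deposited again. Oocyte libraries can hold RNA of other cells, and their catalogued markers were read from the known miRNAs. The marker sums are TMM-scaled CPM, a scale explained below with the levels of the members. Blood and immune markers were detected for 6 of 7 (miR-142-3p was at 0) and summed to 107.8 to 3247.2 CPM. Markers linked to granulosa and cumulus cells were detected for 6 of 7 (miR-212 of the catalogue, which is not predicted miR-212, was at 0) and summed to 4547.9 to 12543.5. Muscle markers were detected for 3 of 4 (miR-133b was at 0) and summed to 0.0 to 12896.3 CPM. Over all libraries each sum rested mainly on a single miRNA. In the blood and immune list this was the catalogued miR-150 (not predicted miR-150) with 1318 counts, before miR-223 with 206. In the granulosa and cumulus linked list it was miR-21-5p with 14720, before miR-503-5p with 4475. In the muscle list it was miR-206 with 1906, before miR-1 with 116.

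Together the 65 members took 37.57% of all 3028647 counts and 65.09% of the counts of predicted miRNAs. The 56 abundant known miRNAs took 39.33%. In a single library the members' share lay between 29.5% and 41.4% with a median of 36.99%, so they were a large part of the captured miRNA counts of every library. The distribution was steep. Predicted miR-212 alone made up 24.39% of the members' counts, the first 3 members 52.59% and the first 10 members 70.95%, while the median member had 5740 counts in all. By summed counts, 18 members had 10000 or more, 23 had 5000 or more but under 10000, and 24 had under 5000. No member had a count of 0 in any library, and the lowest count of any member was 4. Just inside the minimum stood predicted miR-344 with 3081 counts, predicted miR-68 with 3047 and predicted miR-387 with 3038, and just outside stood predicted miR-420 with 2996, predicted miR-808 with 2989 and predicted miR-405 with 2922.

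**Figure D1:**
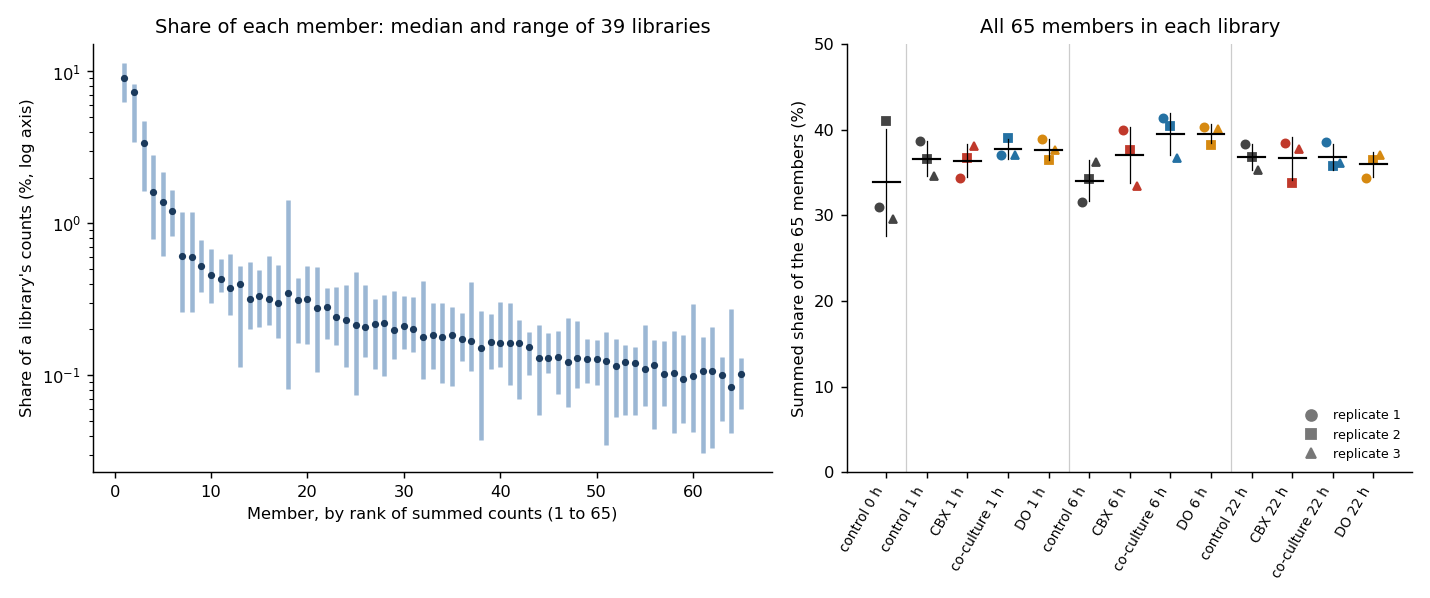
The left panel plots each of the 65 members by its rank of summed counts against its share of a library's counts (percent, log axis), with the median as a point and the range over 39 libraries as a bar. The right panel plots the summed share of the 65 members in each library by condition, with the mean as a horizontal line and the SD of 3 libraries as a vertical line; the shares stayed between 29.5% and 41.4%, and the widest spread is at control 0 h.

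The members' summed share was similar over the course. It was 33.85% ± 6.27 (SD, n = 3) in the control at 0 h, where the libraries ran from 29.5% to 41.0%. At 1 h it was 36.62% ± 2.01 in the control, while CBX had 36.38% ± 1.89, DO 37.64% ± 1.21 and co-culture 37.71% ± 1.18. The 1 h groups overlapped. At 6 h the control was lowest with 34.02% ± 2.38, while CBX had 37.0% ± 3.27, DO 39.54% ± 1.15 and co-culture 39.51% ± 2.46. The 6 h control libraries, at 31.5% to 36.3%, lay below the co-culture libraries (36.7% to 41.4%) and the DO libraries (38.2% to 40.3%), and overlapped with CBX. At 22 h the means were 36.78% ± 1.51 for both control and co-culture, 36.65% ± 2.51 for CBX and 35.94% ± 1.44 for DO, and the groups overlapped again. The share is a composition: where other miRNAs take more of a library, it falls without a change in the members. In pooled oocytes, fewer cells that hold a miRNA and less of it per cell cannot be told apart. Known miRNAs took 45.76% ± 4.19 of the control libraries at 6 h and 40.52% ± 0.45 of the DO libraries.

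Predicted miR-212 was the most counted miRNA of the series, ahead of miR-16b, the most counted catalogued miRNA with 7.03% of all counts. It had 277555 counts, 9.16% of all, and between 6.29% and 11.3% of a library. Counted within libraries, it ranked first of all miRNAs in 32 of 39 libraries and never below place 3. Predicted miR-787 followed with 218917 counts (7.23% of all, libraries 3.42% to 8.32%), ranked first in 3 libraries, and fell to place 6 in its lowest library. Predicted miR-777 had 102010 counts (3.37%, libraries 1.62% to 4.73%) and ranked between places 4 and 10. The order of the 3 was steady: predicted miR-787 was above predicted miR-212 in 5 libraries, and predicted miR-777 was above predicted miR-787 in 1. Mature miRNAs are of nearly equal length, so these are plain counts, not divided by length.

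Below them the order was looser. Predicted miR-322 had 54107 counts and lay below predicted miR-777 in all 39 libraries. Predicted miR-948 (43456 counts) was above predicted miR-322 in 12 libraries, and predicted miR-304 (37848 counts, with 3 equal copies) was above predicted miR-948 in 9. These neighbours therefore changed places between libraries, whereas predicted miR-735 (21267 counts) passed predicted miR-304 in only 1 library. The first 10 were completed by predicted miR-514 with 21127 counts, predicted miR-780 with 16961 and predicted miR-308 with 14128.

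Across the conditions, predicted miR-212 was lower at 1 h than at 22 h. Levels are given from here on as TMM-scaled CPM, where TMM (a trimmed mean of ratios) sets the scale of each of the 39 libraries. In the control it was 79743, 78741 and 62918 in the 3 libraries at 1 h and 106509, 110786 and 82228 at 22 h, so that the groups did not overlap. The fold change was 0.40 on the log2 scale (SE 0.076, adjusted p = 0.0151, edgeR), higher in 3 of 3 replicate numbers and below the fold threshold of 1. In the same control libraries the summed granulosa and cumulus linked markers were at 5574.0 to 8537.7 CPM at 1 h. At 22 h they were at 10042.8 to 12543.5, without overlap, of which the catalogued miR-21-5p alone had a mean of 9153. The part of these markers in the change of predicted miR-212 was not tested. In that comparison 3 of 455 miRNAs (0.659%) passed an adjusted p of 0.05 with no fold asked for. The adjusted p of this comparison ran from 0.0115 to 1.0 over 12 alternatives and missed 0.05 in 8, including the fit without the replicate block (adjusted p = 0.972, edgeR) and DESeq2 (adjusted p = 1.0). In CBX the libraries went from 65065, 75359 and 85165 to 107694, 99149 and 106139, without overlap. That change did not pass the test (log2 fold change 0.45, SE 0.174, adjusted p = 0.388, edgeR). The 1 h and 22 h libraries overlapped in co-culture (77667 to 86579 against 81786 to 108372) and in DO (79032 to 90085 against 89115 to 121736).

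Over the 13 conditions, predicted miR-212 ranged from a mean of 73800 ± 9438 (SD, n = 3) in the control at 1 h to 107911 ± 8561 in co-culture at 6 h. At 6 h the control libraries held 79658, 89100 and 63719, below all 3 co-culture libraries (98376, 114939 and 110416) and all 3 DO libraries (104873, 97135 and 116003). The difference was 0.41 on the log2 scale against co-culture (SE 0.216, adjusted p = 0.846, edgeR) and 0.41 against DO (SE 0.225, adjusted p = 0.821, edgeR), and did not pass the test. Over the 18 between-group comparisons its fold changes lay between -0.12 and 0.41 with SE of 0.113 to 0.287.

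Predicted miR-787 had its lowest mean in CBX at 22 h, where the libraries held 60822, 34917 and 78934, and its highest in the control at 22 h with 85332, 73843 and 82622. The low value of 34917 came from the library with 18796 counts in all. The difference between CBX and control at 22 h was -0.53 on the log2 scale and the smallest adjusted p of this miRNA over the 18 comparisons was 0.469 (edgeR). Predicted miR-777 was lowest in the control at 6 h with 17624, 36676 and 30875, where the first value came from the library with 20180 counts, and highest in CBX at 22 h with 46501, 37908 and 37891. Its fold changes between groups ran from -0.52 to 0.49, and the smallest adjusted p was 0.469 (edgeR).

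**Figure D2:**
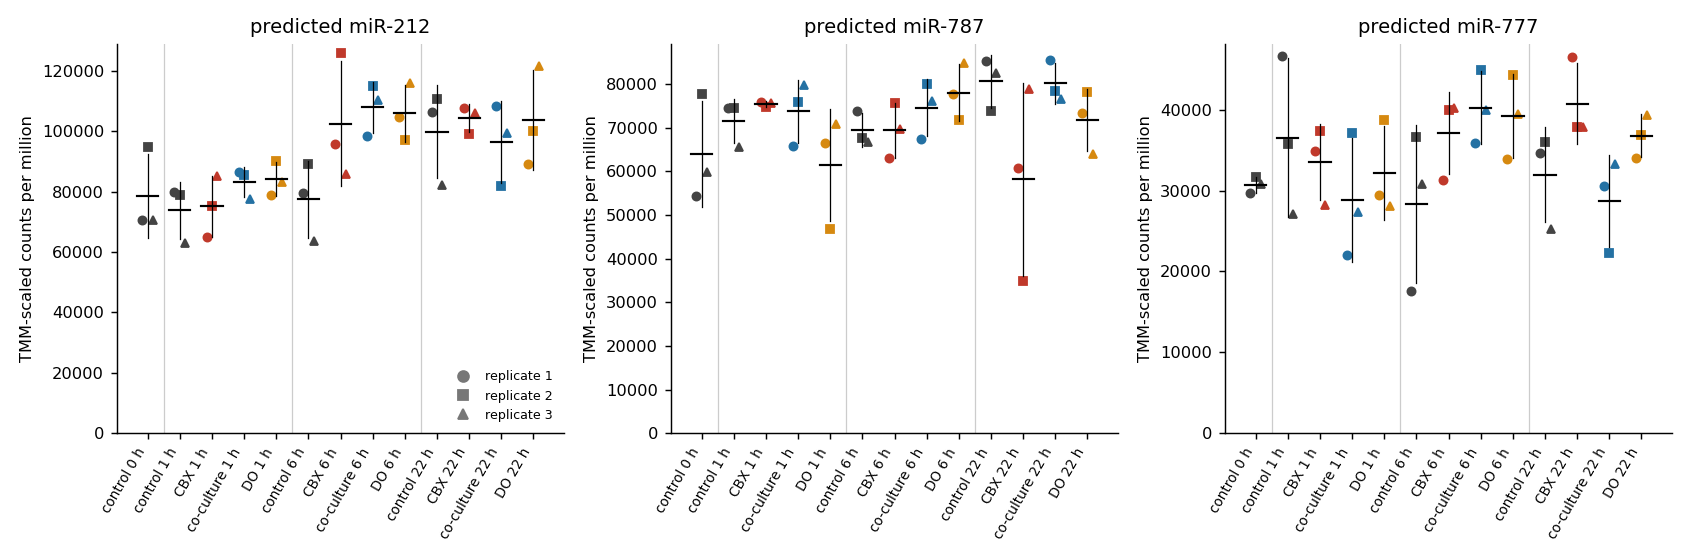
The 3 panels plot the TMM-scaled CPM of predicted miR-212, predicted miR-787 and predicted miR-777 in each library over the 13 conditions, with the mean as a horizontal line and the SD of 3 libraries as a vertical line. Predicted miR-212 lies between 62918 and 90085 in the 12 libraries at 1 h and between 81786 and 121736 at 22 h, while the low values of the other panels are in CBX 22 h replicate 2 and control 6 h replicate 1.

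Gap junction blockade, denuding and co-culture were compared pairwise at each time. All 65 members passed the low-count filter in every comparison. None of 1170 member tests in the 18 between-group comparisons passed an adjusted p of 0.05 with a log2 fold change of at least 1 (edgeR, and 0 with DESeq2), where 0.266% of all tests passed. At an unadjusted p under 0.05 there were 35 member tests, 2.99%, against 5.24% of all tests. The rows left out by number include predicted miR-906, predicted miR-162, predicted miR-321, predicted miR-485, predicted miR-559 and predicted miR-79. The study reported these as different between groups of these libraries, so the members' shares do not stand for all abundant predicted miRNAs. Fold changes were small: the median absolute value was 0.15 on the log2 scale, 92.4% lay under 0.5, and the median SE was 0.25.

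A log2 fold change of 1 in size was reached by 4 member tests, and the libraries overlapped in 3 of them. Predicted miR-801 was at 3180, 1237 and 1234 in the control at 6 h and at 994, 733 and 758 in CBX, which did not overlap (log2 fold change -1.16, SE 0.424, adjusted p = 0.938, edgeR). The highest value came from the control library with 20180 counts. Predicted miR-838 was at 844, 5427 and 2128 in CBX at 1 h and at 3338, 13754 and 1754 in DO (log2 fold change 1.06, SE 0.345, adjusted p = 0.108, edgeR), which overlapped. This was the smallest adjusted p of any member between groups. Predicted miR-838 also differed by -1.05 between control and DO at 6 h (adjusted p = 0.821, edgeR), and predicted miR-668 by -1.02 between control and co-culture at 6 h (adjusted p = 0.846, edgeR), with libraries from 1940 to 5180 in the control and from 912 to 3346 in co-culture. With replicate 1, 2 or 3 left out, predicted miR-838 or predicted miR-668 passed the threshold in 1 or 2 comparisons.

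The course was compared within each group between 1, 6 and 22 h. Of 780 member tests in the 12 time comparisons, 1 passed, where 0.209% of all tests passed. At an unadjusted p under 0.05 there were 52 member tests, 6.67%, against 7.53% of all tests. The call was predicted miR-723 in DO oocytes from 1 to 22 h.

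Predicted miR-723 held 5824, 5716 and 4769 CPM in the DO libraries at 1 h and 2962, 2290 and 2702 at 22 h. The 1 h values were all above the 22 h values and the first 2 of them were the highest of all 39 libraries. It fell by 1.13 on the log2 scale (SE 0.238, adjusted p = 0.035, edgeR), lower in 3 of 3 replicate numbers, and an exact permutation test of the means gave p = 0.1 (two-sided), the smallest that 3 against 3 allows. Summed marker lists, each resting mainly on a single miRNA over the series, also differed between these DO libraries without overlap. The granulosa and cumulus linked markers summed to 5354.0 to 6482.9 CPM at 1 h and 6665.1 to 9397.2 at 22 h. The muscle markers summed to 56.8 to 137.6 and 246.9 to 984.0. Their part in the change of predicted miR-723 was not tested. Of 442 miRNAs tested in this comparison, 1 fell past the threshold (0.226%), and it was this member. The adjusted p ran from 0.00751 to 0.957 over 12 alternatives. The call was lost with another size factor (adjusted p = 0.0527), in a fit of all 39 libraries (0.168), and when replicate 1 (0.0533) or replicate 3 (0.957) was left out, all edgeR, and without replicate 2 the fold was -0.93.

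In the other groups predicted miR-723 also had lower means at 22 h, by amounts that did not pass. The control went from 2947, 3380 and 4724 to 2597, 2935 and 3493 (log2 fold change -0.31, SE 0.21, adjusted p = 0.682, edgeR). CBX went from 3854, 3085 and 4762 to 2608, 3481 and 2504 (-0.49, SE 0.302, adjusted p = 0.495, edgeR), and co-culture went from 3036, 3325 and 4917 to 2872, 2697 and 2794 (-0.42, SE 0.238, adjusted p = 0.759, edgeR). The libraries of control and CBX overlapped and those of co-culture did not. The change in DO minus the change in the control was -0.84 on the log2 scale (SE 0.306, adjusted p = 0.629, edgeR), so a difference between the groups in this course was not established.

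Predicted miR-589, the other member with a known sequence, stood at 3236, 3483 and 2855 in DO at 1 h and at 1859, 2033 and 1685 at 22 h. These libraries did not overlap, and the change of -0.88 (SE 0.237, adjusted p = 0.134, edgeR) did not pass. Over all 39 libraries the log2 levels of predicted miR-589 and predicted miR-723 had a Pearson r of 0.77, as a description over libraries that share their scaling and, where replicate numbers mark an ovary pool, which no label states, also their pools. The sequences printed above start with different seeds.

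**Figure D3:**
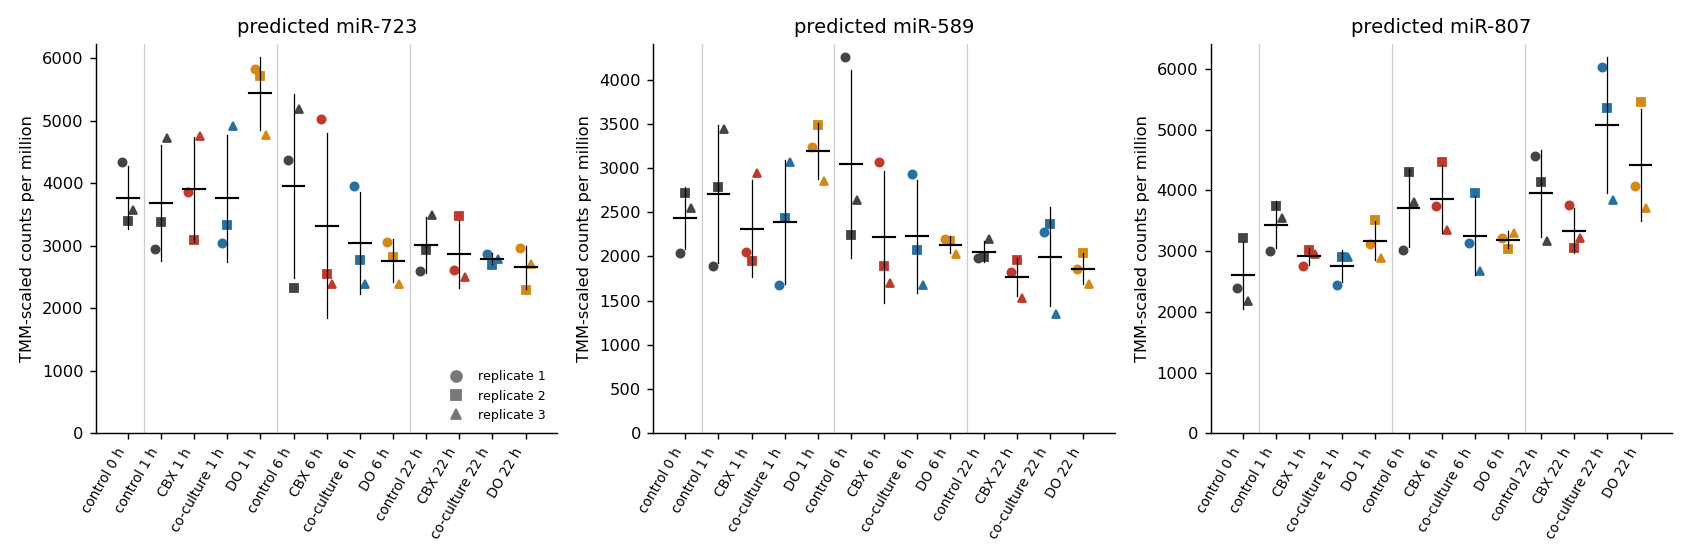
The 3 panels plot the TMM-scaled CPM of predicted miR-723, predicted miR-589 and predicted miR-807 in each library over the 13 conditions, with the mean as a horizontal line and the SD of 3 libraries as a vertical line. For predicted miR-723 the DO libraries lie at 4769 to 5824 at 1 h and at 2290 to 2962 at 22 h, and for predicted miR-807 the highest value is 6039 in co-culture at 22 h.

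To use all libraries of the course, the change from 1 to 22 h was also averaged over the 4 groups in a fit of 36 libraries. No member passed the threshold with its fold of 1 (edgeR, and 0 with DESeq2), where 9 of 600 miRNAs did (1.5%). An unadjusted p under 0.05 (edgeR) was found for 16 of 65 members and for 161 of 600 miRNAs. Without the fold, 8 of 65 members had an adjusted p under 0.05. Of these, 3 were higher at 22 h, where 4.5% of all miRNAs were, and 5 were lower, where 4.67% of all were. The 8 make 12.3% of the members, against 9.17% of all miRNAs and 5 of the 56 abundant known miRNAs (8.93%), so the share is near the background. Of the 65 averaged changes, 31 were above 0 and 34 below.

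The 3 that rose were predicted miR-212, predicted miR-807 and predicted miR-150. Predicted miR-807 had a lowest, median and highest level of 2445, 2977 and 3748 in the 12 libraries at 1 h and of 3046, 3952 and 6039 at 22 h. The ranges overlapped, and it rose by 0.40 on the log2 scale (SE 0.089, adjusted p = 0.0115, edgeR), in 11 of 12 pairs of the same group and replicate number. The group with the largest estimate was co-culture, with 2445, 2905 and 2907 at 1 h and 6039, 5361 and 3837 at 22 h (0.84, adjusted p = 0.377, edgeR), and the difference of that course from the control was 0.64 (SE 0.286, adjusted p = 0.996, edgeR). Predicted miR-212 had 62918, 79387 and 90085 as lowest, median and highest at 1 h and 81786, 103115 and 121736 at 22 h. It rose by 0.32 (SE 0.077, adjusted p = 0.0225, edgeR), in 11 of 12 pairs. Predicted miR-150 had 819, 1414 and 2382 at 1 h and 1257, 2141 and 3046 at 22 h, a rise of 0.49 (SE 0.145, adjusted p = 0.0308, edgeR) in 9 of 12 pairs. It is also the miRNA whose levels were most like those of predicted miR-212 over the 39 libraries (Pearson r 0.69).

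The 5 that fell were predicted miR-723, predicted miR-303, predicted miR-589, predicted miR-790 and predicted miR-542. Predicted miR-723 had 2947, 4289 and 5824 as lowest, median and highest at 1 h and 2290, 2748 and 3493 at 22 h, and fell by 0.59 (SE 0.139, adjusted p = 0.0188, edgeR) in 11 of 12 pairs. Predicted miR-589 had 1673, 2821 and 3483 at 1 h and 1353, 1969 and 2362 at 22 h, and fell by 0.50 (SE 0.141, adjusted p = 0.0251, edgeR) in 9 of 12 pairs. Predicted miR-303 had 1685, 2690 and 3435 at 1 h and 1301, 2048 and 2647 at 22 h, and fell by 0.44 (SE 0.121, adjusted p = 0.0249, edgeR) in 10 of 12 pairs. All these ranges overlapped between the times. Predicted miR-790 and predicted miR-542 fell by 0.33 each, with adjusted p of 0.0305 and 0.0438 (edgeR), each in 9 of 12 pairs. They are near-equal copies of each other, described below, and are not independent. Each of the 8 had the same direction of estimated change in all 4 groups, which follows in part from their choice by the average over these groups.

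**Figure D4:**
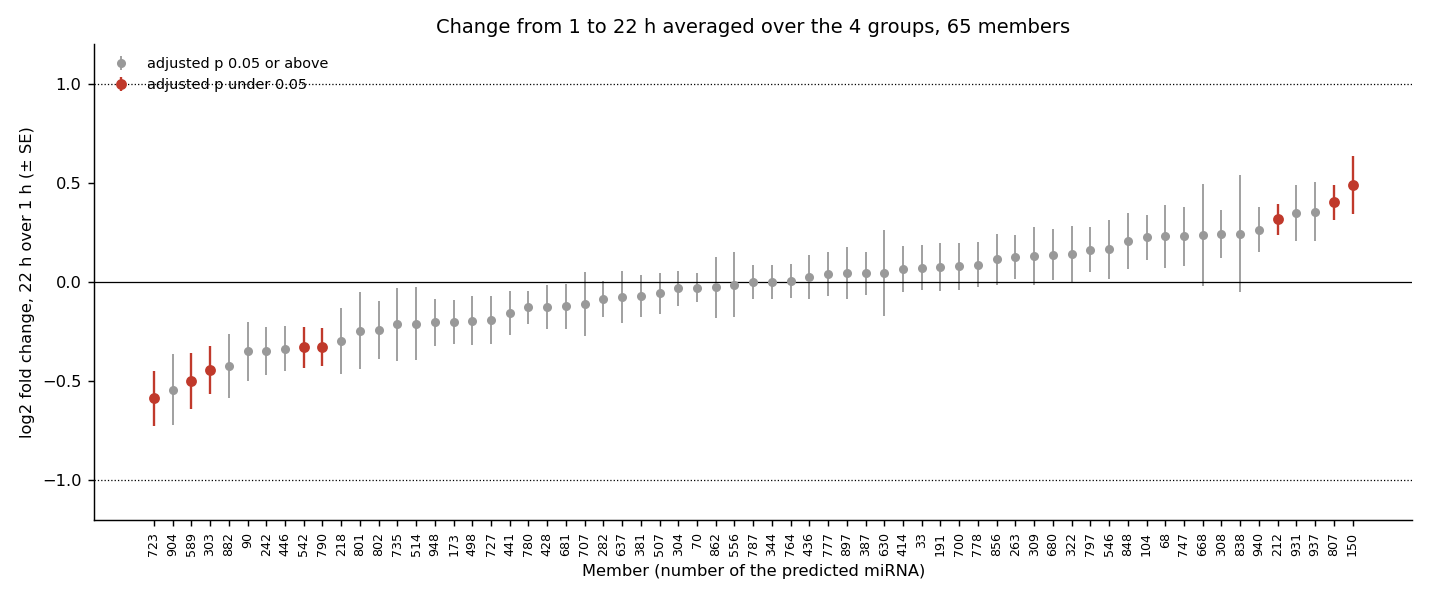
Each point is the log2 fold change of 1 of the 65 members from 1 to 22 h, averaged over the 4 groups in a fit of 36 libraries, with its SE as a bar and the fold threshold of 1 as dotted lines. The 8 members with an adjusted p under 0.05 are in red, from -0.59 for predicted miR-723 to 0.49 for predicted miR-150, and no member reaches the dotted lines.

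Which of the 8 passed depended on the libraries entered. With replicate 1, 2 or 3 left out, the count was 2, 1 or 0, and without the 3 libraries under 30000 counts it was 9, which included all 8. Marker levels moved over the same interval: the summed blood and immune markers had a median of 440.5 CPM over the 12 libraries at 1 h and 543.7 at 22 h, the granulosa and cumulus linked markers 6308.4 and 6945.7, and the muscle markers 108.4 and 288.3. Over the 12 libraries of each time these ranges overlapped. Within groups they did not overlap for the granulosa and cumulus linked markers in control and DO and for the muscle markers in DO, as given above, nor for the blood and immune markers in CBX (410.0 to 443.7 at 1 h and 489.5 to 494.6 at 22 h). As each sum rests mainly on a single miRNA, it does not show that a list moved together. The part of other cells in these changes was not tested.

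The control at 0 h was compared with the control at 1 h and at 22 h. No member passed in either comparison (edgeR, and 0 with DESeq2), where 0% of all miRNAs passed, and 0 of 130 member tests had an unadjusted p under 0.05, against 3.33% of all tests. The 0 h libraries had totals of 11985, 68389 and 49916 counts, the first of which was the lowest of the series, and the median SE of the members was 0.31 on the log2 scale. The course from 1 to 22 h was also compared between each treated group and the control as an interaction. No member passed (edgeR, and 0 with DESeq2), where 0% of all miRNAs passed. At an unadjusted p under 0.05 there were 4 of 195 member tests (2.05%), against 3.88% of all tests: predicted miR-723 in DO, predicted miR-904 and predicted miR-68 in CBX, and predicted miR-807 in co-culture.

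Most members varied less than 2-fold over the 13 conditions. The ratio of the highest to the lowest of the 13 condition means had a median of 1.56 over the 65 members and 1.74 over the 56 abundant known miRNAs. It was under 2 for 54 members and 2 or more for 11. The SD of the log2 level over the 39 libraries had a median of 0.33 for the members and 0.42 for the known miRNAs. The smallest ratios were 1.17 for predicted miR-381, 1.19 for predicted miR-70, 1.22 for predicted miR-507, 1.26 for predicted miR-778 and 1.26 for predicted miR-897. Predicted miR-70 was the steadiest, with 3422 to 5575 CPM over all 39 libraries.

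The largest ratios belonged to predicted miR-838 (2.77), predicted miR-801 (2.53), predicted miR-68 (2.53), predicted miR-668 (2.44) and predicted miR-514 (2.21). For predicted miR-801 and predicted miR-68 the highest condition was the control at 6 h, and within it the library with 20180 counts, at 3180 and 2964 against 1234 or 1237 and 750 or 755 in the other libraries. Of the 65 members, 12 had their highest condition mean in the control at 6 h and 11 their lowest there, and 12 had their lowest in CBX at 22 h. Both conditions hold a library under 30000 counts. Without the 3 shallow libraries the number of members with a ratio of 2 or more was 11 again, but not of the same members. Predicted miR-668 (2.90) and predicted miR-838 (2.67) led, predicted miR-801 dropped out at 1.51 and predicted miR-546 at 1.88, and predicted miR-797 (from 1.71 to 2.53) and predicted miR-303 (from 1.91 to 2.07) came in.

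Predicted miR-838 stood apart from the other members. Its level ran from 844 to 13754 CPM over the 39 libraries, an SD of 1.02 on the log2 scale. The highest values were 13754 in DO 1 h replicate 2, 12759 in control 0 h replicate 1 and 12618 in CBX 22 h replicate 2, which are libraries of 32676, 11985 and 18796 counts. In CBX it went from 844, 5427 and 2128 at 1 h to 3844, 12618 and 2695 at 22 h (log2 fold change 1.21, SE 0.378, adjusted p = 0.34, edgeR), which among the alternatives passed when the scaling was taken from known miRNAs (1.41, adjusted p = 0.00664, edgeR) or replicate 3 was left out (1.66, adjusted p = 0.03, edgeR). Its lowest value was 844 in CBX 1 h replicate 1, a library of 118811 counts. Over the 39 libraries the log2 level had a Pearson r of -0.75 with the log2 library total, and -0.74 over the 36 libraries with at least 30000 counts. Replicate number took 33.1% of its variance and condition 16.8%, with means of 3277 in replicate 1, 6774 in replicate 2 and 3244 in replicate 3.

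Predicted miR-735 moved the other way, with an r of 0.69 with the library total. Its level was lowest in CBX 22 h replicate 2 at 2665 and highest in co-culture 1 h replicate 1 at 11464. Over all members the correlation with the library total ran from -0.75 to 0.69 with a median of 0.15. Whether depth itself, the RNA input or the pool of oocytes carries these relations was not tested.

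**Figure D5:**
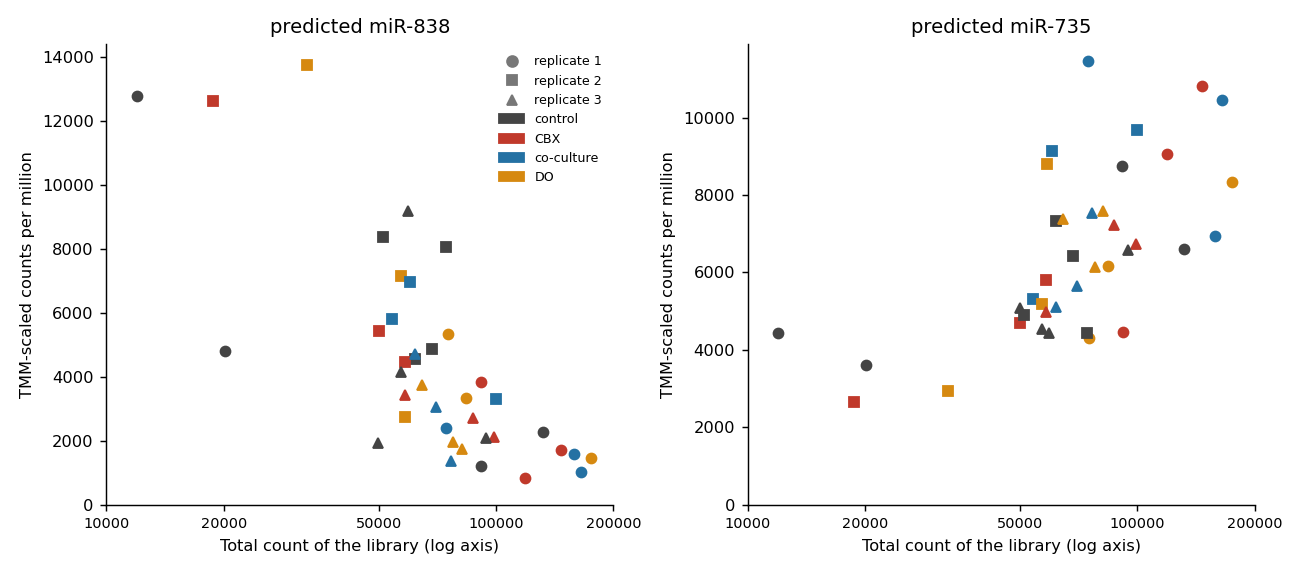
Each point is a library, with its total count on the x axis (log axis) and the TMM-scaled CPM of predicted miR-838 or predicted miR-735 on the y axis; colour gives the group and shape the replicate number. Predicted miR-838 is at 12759 in the library of 11985 counts and at 1463 in the library of 175429 counts, and predicted miR-735 is at 4430 and 8349 in the same libraries.

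Condition took a median of 32% of the variance of a member's log2 level over the 39 libraries and replicate number a median of 10%. These parts are not corrected for the number of groups. A split of 39 libraries into 13 conditions takes a larger part than a split into 3 replicate numbers even without any effect. The medians therefore cannot be set against each other, and the 32% alone does not show an effect of condition. Replicate number took the largest part for predicted miR-780 at 38.5%, with 5284 CPM on average in replicate 1, 5098 in replicate 2 and 6402 in replicate 3, and for predicted miR-304 at 35.9%.

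Several members had nearly the same counts under different numbers. Besides the 10 members that each stand for rows of equal counts, 5 pairs had summed counts within 5% and a correlation above 0.95. Predicted miR-735 and predicted miR-514 had 21267 and 21127 counts, an r of 0.9998 and at most 15 counts of difference in any library. Predicted miR-700 and predicted miR-191 had equal counts in 27 of 39 libraries (3609 and 3592 in all). The other pairs were predicted miR-681 with predicted miR-428 (r 0.991), predicted miR-381 with predicted miR-507 (0.977) and predicted miR-790 with predicted miR-542 (0.974). With each pair counted as a single entry, the 65 members come to 60. How reads that fit several loci were counted is not given in the sources used here and the sequences of these pairs were not at hand, so the values of these members are uncertain as to locus.

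Apart from these pairs the members did not move as a block. Over all 2080 pairs of members the correlation of log2 levels across libraries had a median of 0.04. It exceeded 0.7 in 19 pairs, the 5 near-equal pairs among them. Beside predicted miR-150, predicted miR-212 was most like predicted miR-171 (0.68) and predicted miR-162 (0.65). Predicted miR-787 was most like the catalogued miR-192 (0.70), miR-216a (0.70) and miR-19a (0.68), and predicted miR-777 was most like predicted miR-405 (0.66), predicted miR-263 (0.64) and predicted miR-700 (0.63). These are descriptions over 39 libraries that were scaled together.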

How the data were processed

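Small RNA libraries of pooled bovine oocytes (QIAseq miRNA Library Kit, with molecular identifiers) were analysed from the deposited whole-number counts per mature miRNA, in a table of known and a table of predicted miRNAs. The authors trimmed and deduplicated reads with UMI-tools (1.1.2 in the submitters' processing notes), checked them with FastQC (0.11.9), aligned them to ARS-UCD1.2 and counted known and predicted miRNAs with miRPro against miRBase. How reads shared by several loci were counted is not given in the sources used here.

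Every column matched a labelled sample. Tests used edgeR 4.0.16: TMM factors, the filterByExpr filter (minimum count 10, minimum total 15), the quasi-likelihood F-test with replicate number as a block (the study entered ovary pool, and no label says that equal numbers share a pool), and Benjamini-Hochberg adjustment over all known and predicted miRNAs tested, with a call at an adjusted p under 0.05 and a log2 fold of 1 or more in size. The standard error is the fold change divided by the root of F. Variability used log2 of TMM-scaled CPM plus 10. The fits were also run on simulated counts with the same spread for every miRNA and no difference between replicate numbers. That run does not show how often the tests between small groups here find or miss a change. DESeq2 1.42.0 was an alternative. Same-numbered libraries deviated together with a mean correlation of 0.02 to 0.478 over 32 comparisons, and every pair exceeded 0.1 in 19.

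The members, lists and tests were chosen with earlier results of these data known. Named members were the 10 largest, those that passed a test, the 5 largest and 5 smallest condition ratios, those next to the minimum, those with a sequence, near-equal copies and the miRNAs most like the first 3. Predicted miR-797, predicted miR-546 and predicted miR-904 were named after their values were seen. The floor of 3 counts covers counting error only, while SDs and standard errors come from the spread between libraries.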

Additional observations from a re-analysis of the deposited data

How the results depend on the processing

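Over the 18 between-group comparisons the member calls were 0 in every other fit and 1 to 2 when a replicate was left out. Over the 12 time comparisons the main count was 1, for predicted miR-723. It was 0 with DESeq2 size factors and 0 in a single fit of all 39 libraries. With scaling from known miRNAs only it was 2, and with no fold threshold 2, with predicted miR-723 in both. Without a replicate it was 1 to 2, but these calls were predicted miR-838 or predicted miR-668. The call of predicted miR-723 was lost whichever replicate was left out. For the change averaged over the 4 groups the count was 0 with the fold threshold and 8 over the 3 contrasts without it. The 8 members past an adjusted p of 0.05 from 1 to 22 h became 2 with no low-count filter, where more miRNAs were tested, 5 with scaling from known miRNAs only, and 0 to 2 without a replicate. Without the replicate block the counts were 0 between groups, 1 over time and 6 in the averaged fit, all 6 among the 8, and the adjusted p of predicted miR-212 in the control from 1 to 22 h went from 0.0151 to 0.972 (edgeR). The calls at 0 h and of the interaction were 0 in every fit. None of the 10 named changes over time reversed its direction in any alternative. The members' share of 37.57% of all counts became 41.67% with equal rows counted once in the denominator, 65.09% with predicted miRNAs as the denominator and 34.69% with a minimum of 5000 counts, and lay between 36.91% and 38.09% without a replicate. Leaving out the 3 libraries under 30000 counts was added after seeing the data. Apart from the alternatives' own construction, the cause of these moves was not tested. With 3 libraries a group and totals down to 11985 counts, both counting error and the spread between libraries limit what these tests can call.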

Other observations

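The miRNAs whose levels were most like those of predicted miR-838, chosen after its values were seen, were all predicted and of lower abundance: predicted miR-867 (Pearson r 0.92 over 39 libraries, 2780 counts in all), predicted miR-440 (0.85, 842 counts) and predicted miR-422 (0.85, 416 counts). Predicted miR-723 was most like predicted miR-394 (0.79, 2055 counts), which lies below the minimum of 3000. Predicted miR-882, a member with a change of -0.42 from 1 to 22 h averaged over the groups (SE 0.163, adjusted p = 0.0911, edgeR), had an r of 0.75 with predicted miR-723 and of 0.74 with predicted miR-589. These correlations are descriptions over libraries that were scaled together.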
